A study of Mus musculus with 12 samples.

Results

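The response of mouse CD4 T cells to activation was compared between the genotypes that the labels call KI and KIKO. CD4 T cells were taken from the spleen and were either kept naive or stimulated for 16 h on CD3/CD28 beads, which trigger the antigen receptor together with its CD28 co-receptor. There were 4 groups of 3 libraries each: KI naive, KI activated, KIKO naive and KIKO activated. The labels do not say which gene or allele KI and KIKO stand for, which Cre driver or promoter was used, how old the animals were, or whether the 3 libraries of a group came from separate animals, so p-values measure only the spread between these samples. In the KIKO activated group CD4 is named by the sample source but not by the titles. The series is concerned with proteasome dysfunction in T cells, and the question put to the data here was at which genes the activation response itself depends on genotype.

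For each locus a KI response (KI activated minus KI naive) and a KIKO response (KIKO activated minus KIKO naive) were computed as differences of group means of log2(FPKM + 1), where FPKM counts fragments relative to transcript length and library size. The interaction is the KIKO response minus the KI response. It is negative where a rise is smaller, or a fall is deeper, in KIKO cells. Of 15125 loci in the files, 9743 reached an FPKM of 1 in at least 3 of the 12 libraries, and all 9743 were tested and sorted. No locus was chosen by a measured outcome, but loci with lower values were not tested. At 603 loci fewer than 3 libraries reached 1 FPKM once the group with most such libraries was set aside. A locus that passes through 1 group alone had to differ, so for genes of this kind (Dtl, Fosl1, Khdrbs3, Orc1, Slc7a11, Srxn1, Tk1 and Zfp385a among those named) levels are given as a description, with no test. Their calls, 67 of the 603, are still in the counts below, those of the gene lists included, and support nothing there. Gpt2, Hspb1 and Perp, named below without levels, are also of this kind. At the other 9140 loci the interaction was called at 1943 (21.3%). A response or an interaction is called where its limma p, adjusted by Benjamini-Hochberg over the 9743 loci, was under 0.05. Values after ± are standard errors (SE) of that fit on the log2 scale, with n = 3 libraries per group, and every adjusted p below comes from it. Because of the added 1, these differences understate changes of genes with low FPKM. A level of 0 means that the gene was not listed in that library, and FPKM values alone do not give the sequencing depth, which is unknown here. Where 2 ranges joined by "to" are given they are the lowest and highest of the 3 naive and of the 3 activated libraries.

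A resting CD4 T cell is small and quiescent. Engagement of its receptor first switches on immediate early transcription factors, cytokines and their receptors, and then a growth program under Myc that builds ribosomes, nucleotides, lipids and mitochondria before the genes of DNA replication are expressed and the cell divides. At the same time genes that hold the cell in quiescence are turned down. The proteasome degrades proteins tagged with ubiquitin, among them short-lived regulators such as cyclins, p53, ATF4 and NRF2, so it acts both on the cell cycle and on stress pathways.

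The libraries were checked first. The labels name no altered gene. An exon of 307 bp on the minus strand of chromosome 14 (54853972 to 54854278, GRCm39) whose length matches Psmb5, the catalytic subunit of the proteasome core with chymotrypsin-like activity, was at 42.8, 42.9 and 43.9 FPKM in KI naive and 115, 125 and 141 FPKM in KI activated libraries. The same exon was not listed in any KIKO naive library and was at 4.9, 29.1 and 0 FPKM in the KIKO activated libraries. The summed FPKM of 6 T cell markers (Cd3e, Cd3d, Cd3g, Cd4, Lck and Trac) ran from 1195 to 1408 in KI naive, 949 to 1031 in KI activated, 896 to 1059 in KIKO naive and 453 to 703 in KIKO activated libraries. Ms4a1, Pax5 and Ebf1 (B cells) and Itgam and Cd14 (myeloid cells) were never listed, and 2 CD8 markers summed to at most 16.1. KIKO naive 2 and KIKO activated 2 stood apart: their 7 myeloid markers summed to 202 and 163 FPKM, against at most 5.97 in the other 10 libraries, and NK cell markers to 8.01 and 10.6. The myeloid sums rested on Lyz2 (26.1 and 22.2), S100a8 (66 and 45.4) and S100a9 (110 and 92.8). Csf1r and Adgre1 were at 0 in KIKO naive 2 and at 1.83 and 0.73 in KIKO activated 2. The NK sums rested on Gzma (8.01 and 7.57), and Ncr1, Nkg7 and Eomes were at 0 in KIKO naive 2 and at most 1.3 in KIKO activated 2. KIKO naive 2 also held 85319 listed transcript events, against 100188 to 112679 in the others. The median share, the KIKO-only count and those genes described below whose call changed are also given without both number 2 libraries. In bulk RNA, fewer cells of a type and less RNA per cell cannot be told apart, and this holds for every level below.

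Activation moved most of the transcriptome in KI cells and did so less in KIKO cells. The KI response was called at 6013 loci (61.7% of those tested), of which 3135 rose and 2878 fell. The KIKO response was called at 4609 loci (47.3%), of which 2448 rose and 2161 fell. Across the 9743 loci the KI and KIKO responses had a Pearson r of 0.756 and a Spearman rho of 0.748, which describes loci of the same 12 libraries and carries no test. Over the 6013 loci called in KI cells, the median share of the KI response seen in KIKO cells (the KIKO response divided by the KI response) was 0.557. It was 0.535 for rises and 0.583 for falls. Taken for each KIKO activated library against the KIKO naive mean, the median share was 0.582, 0.681 and 0.418 (mean 0.56 ± 0.133 SD, n = 3), and the same measure in the KI activated libraries was 0.907, 1.03 and 1.06. The KI values lie near 1 by construction, because the loci were chosen by the KI response and divided by it, so the 2 sets of values are no test of each other. Among the KIKO libraries, number 2 showed the largest and number 3 the smallest response. Without the number 2 libraries of KIKO cells the median share was 0.511.

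**Figure D1:**
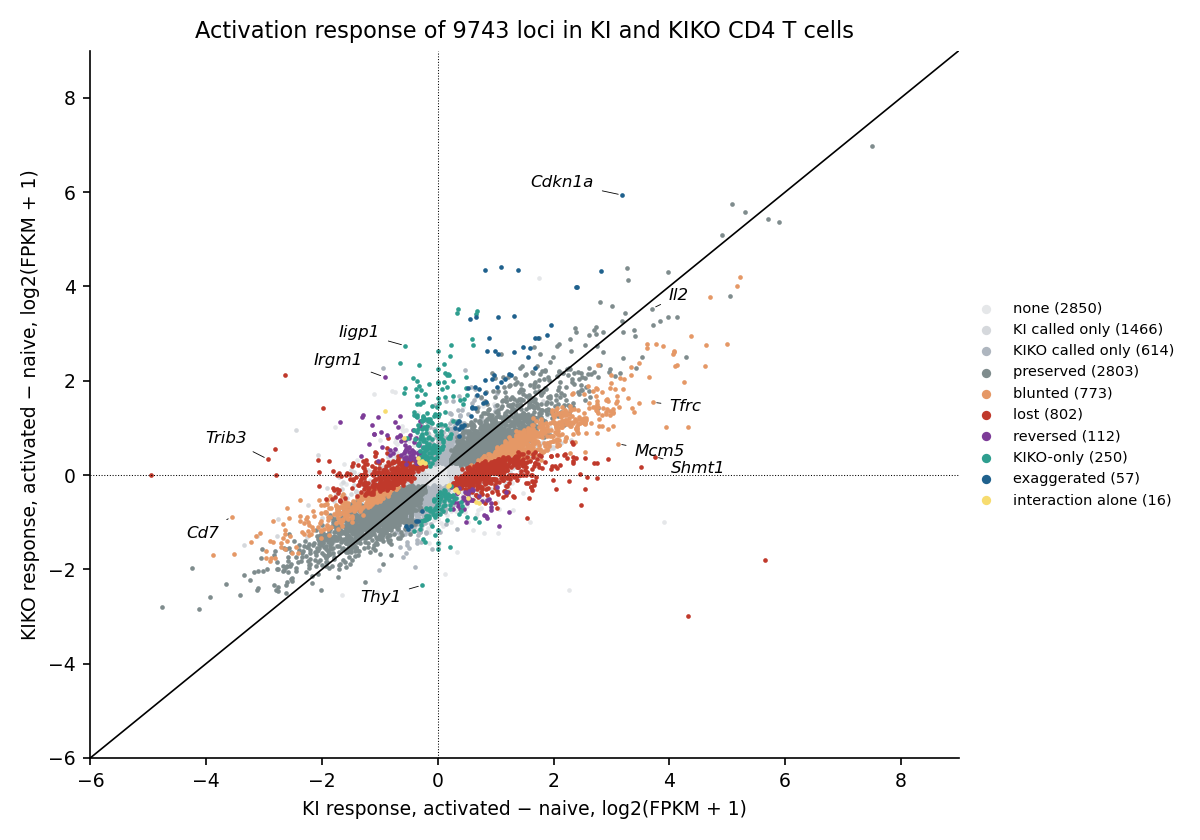
Each point is 1 of the 9743 loci tested. The x axis is the response in KI cells and the y axis the response in KIKO cells, both as activated minus naive in log2(FPKM + 1), and colours give the response class with the number of loci. The solid diagonal marks equal responses. Blunted loci lie between the diagonal and the dotted horizontal line, lost loci lie along that line, and KIKO-only loci along the dotted vertical line. The 2 lost loci furthest to the lower right are Rpl5-ps1 (interaction -7.46) and Gm9800 (-7.30), the former a pseudogene whose reads can come from its parent gene.

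The interaction was called at 2010 of the 9743 loci (20.6%). It was above 0 at 876 (8.99%) and below 0 at 1134 (11.6%). Its size was 1 or more on the log2 scale at 722 loci and 2 or more at 84, the smallest called was 0.31, and the median SE over all loci was 0.22. Of the 319 loci that rose 4-fold or more in KI cells, 207 (64.9%) had a called interaction in the opposite direction, against 62 of 170 (36.5%) of those that fell 4-fold or more. Over all rises and falls called in KI cells these percentages were 33.1% and 22.5%. Choosing loci by a large KI response favours an opposite interaction by construction, because that response is subtracted in it. The median shares of the KI response at the strong responders were 0.57 and 0.632, against 0.535 and 0.583 for all called rises and falls. Without KI activated 3 the number below 0 was 747 in place of 1134. At the threshold itself, Pex2 (interaction -0.439) and Zfp418 (1.32) were just inside, and Mylip (0.763) and Ubr7 (-0.62) just outside.

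Each locus was placed in a class by its calls. A lost response (802 loci, 8.23% of those tested) was called in KI cells, with a called opposite interaction and no called KIKO response. Of these 463 were rises and 339 falls, and without KI activated 3 there were 501. The class covers partial loss too: the share was below 0.25 at 698 of the 802 and between 0.25 and 0.5 at 104, and a KIKO response that misses the threshold is not shown to be absent. A blunted response (773 loci, 7.93%) was called in both genotypes in the same direction and was smaller in KIKO cells; 535 were rises and 238 falls, the median share was 0.463 with quartiles of 0.381 and 0.535, and without KI activated 2 there were 497. A reversed response (112 loci, 1.15%) was called in both genotypes in opposite directions. An exaggerated response (57 loci, 0.585%, of which 51 were rises) was called in both and larger in KIKO cells, and without KIKO activated 3 there were 142. A KIKO-only response (250 loci, 2.57%, 169 rises and 81 falls) was called in KIKO cells with no called KI response, and without both number 2 KIKO libraries there were 165. A preserved response (2803 loci, 28.8%) was called in both genotypes in the same direction with no called interaction. Preserved does not mean equal: its median share was 0.835, the interaction ran against the KI response at 1973 of the 2803, and its 95% interval lay within -1 to 1 at 2156. The remaining loci were called in KI cells alone without an interaction (1466), in KIKO cells alone without an interaction (614), in the interaction alone (16) or nowhere (2850).

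**Figure D2:**
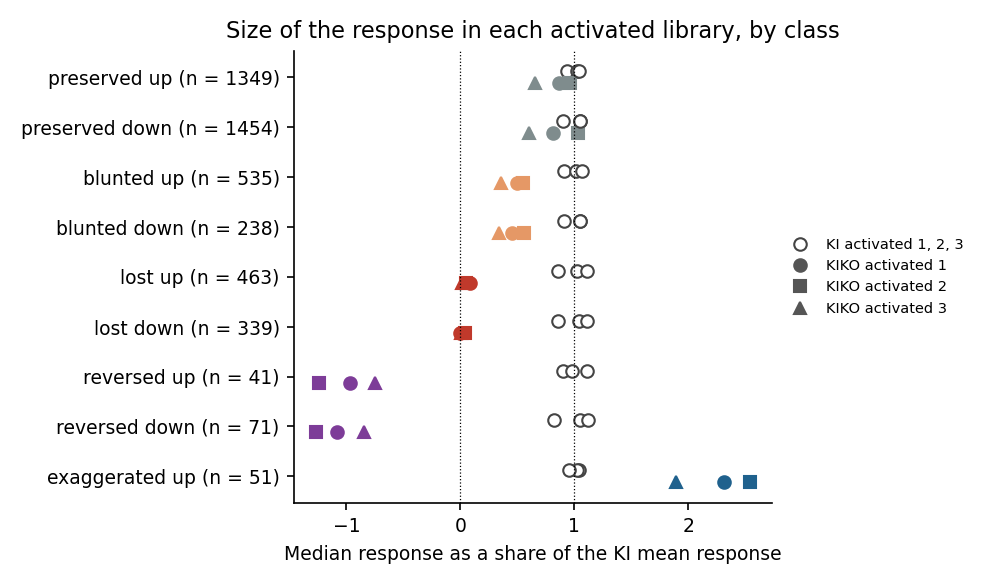
The x axis is the median, over the loci of a class, of the response in 1 activated library divided by the mean KI response; open circles are the 3 KI activated libraries and filled symbols the 3 KIKO activated libraries. The KI libraries sit near 1 in every class by construction. KIKO activated 3 had the smallest share in the blunted classes (0.36 and 0.344) and in the preserved classes (0.654 and 0.604).

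Differences between the genotypes were mostly larger in activated than in naive cells. Among lost rises the median difference of KIKO from KI cells was 0.16 in naive and -0.71 in activated libraries, and among blunted rises it was 0.11 and -0.76. Lost falls showed -0.05 and 0.72, and KIKO-only rises 0 and 1.09. The naive difference nevertheless exceeded the activated one at 86 of the 463 lost rises and 55 of the 339 lost falls. Khdrbs3, an RNA-binding protein of the STAR family, is an example. Its levels were 5.51, 5.14 and 4.63 FPKM in KI naive and 0.314, 0.302 and 0.8103 in KI activated libraries, but it was already at 0.0191, 0.162 and 0.725 in KIKO naive libraries and stayed at 0.529, 0.596 and 0.604. Shmt1, described with the folate enzymes below, also started higher in KIKO naive cells.

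Promoters of some replication and stress genes are shown first, as examples with a match before the start to letters that the factors of these programs are known to read. Windows of 300 bases, from 250 before to 50 after the annotated start, were taken from RefSeq (GRCm38.p6) for the 6997 tested loci that matched by symbol. An E2F site (searched as TTTCCCGC, TTTGGCGC, TTTGCCGC or TTTCGCGC on both strands) is the element through which E2F factors switch on replication genes. It was found in 4.59% of these windows and in 2.34% of all 27025 RefSeq windows. In lost rises it was in 33 of 356 windows (9.27%), in blunted rises in 25 of 414 (6.04%), in reversed rises in 7 of 27 (25.9%) and in exaggerated rises in none of 41. Among the helicase and origin genes it was in 7 of 17, and among the replication fork genes in 9 of 30. Stretches of 120 bases before the start are given below, 5' to 3' on the gene's strand, with the matched letters in capitals.
Mcm5 (chr8:75109319-75109438, +): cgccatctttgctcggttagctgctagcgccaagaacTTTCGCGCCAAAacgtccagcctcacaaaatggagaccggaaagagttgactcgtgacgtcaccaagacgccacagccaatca
Orc1 (chr4:108579334-108579453, +): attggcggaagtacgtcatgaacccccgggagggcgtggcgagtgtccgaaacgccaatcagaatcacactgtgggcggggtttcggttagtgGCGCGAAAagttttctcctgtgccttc
Pola1 (chrX:93632226-93632345, -): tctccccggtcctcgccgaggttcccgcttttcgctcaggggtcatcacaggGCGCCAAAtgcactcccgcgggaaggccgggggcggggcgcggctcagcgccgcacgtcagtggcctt
Cdc25a (chr9:109875459-109875578, +): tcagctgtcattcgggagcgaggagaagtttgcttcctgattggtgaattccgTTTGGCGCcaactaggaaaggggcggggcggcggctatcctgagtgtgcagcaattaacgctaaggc
Cdk2 (chr10:128705122-128705241, -): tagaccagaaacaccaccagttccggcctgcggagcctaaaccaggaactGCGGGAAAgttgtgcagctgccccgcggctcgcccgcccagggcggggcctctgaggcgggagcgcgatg
In the Mcm5 stretch 2 matches overlap, 1 on each strand, and the other stretches hold 1 match each. Mcm5 and Orc1 encode parts of the machinery that loads the replicative helicase, Pola1 the catalytic subunit of the primase-polymerase, Cdc25a the phosphatase that activates cyclin-dependent kinases, and Cdk2 the S phase kinase itself. Mcm5 was blunted, Pola1 and Cdc25a lost and Cdk2 reversed in KIKO cells, and the levels of Orc1 are given below.

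The second element is the ATF4-CHOP composite site (TGATGNAA on both strands), through which stress-induced ATF4 acts. It was in 1.93% of the 6997 windows and in 4.07% of all 27025 RefSeq windows. Among rises it was in 4 of 41 exaggerated (9.76%), 2 of 27 reversed (7.41%) and 3 of 135 KIKO-only ones (2.22%). It was also in 4 of the 12 genes listed as ATF4 and CHOP targets, namely Asns, Atf3, Slc7a11 and Trib3. The first 3 are shown because their levels in KIKO activated cells exceeded every other library.
Asns (chr6:7693210-7693329, -): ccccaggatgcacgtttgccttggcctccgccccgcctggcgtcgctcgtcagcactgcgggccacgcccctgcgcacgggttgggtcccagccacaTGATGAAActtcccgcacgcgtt
Atf3 (chr1:191183374-191183493, -): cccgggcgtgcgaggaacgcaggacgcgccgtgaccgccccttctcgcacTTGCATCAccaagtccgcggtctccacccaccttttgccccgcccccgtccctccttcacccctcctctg
Slc7a11 (chr3:50443614-50443733, -): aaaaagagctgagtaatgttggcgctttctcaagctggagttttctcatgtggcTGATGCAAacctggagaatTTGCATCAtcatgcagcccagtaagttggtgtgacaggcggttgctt
The Slc7a11 stretch holds 2 matches, 1 on each strand. The E-box CACGTG, bound by Myc and Max, was in 10.7% of all 6997 windows, 16.9% of lost rises and 17.1% of blunted rises, and the antioxidant element TGACNNNGC in 14.5% of all windows and in 6 of 19 NRF2 target genes. The CHR element TTTGAA, the AP-1 site TGANTCA and the CCAAT box (CCAAT) were in 11.1%, 4.09% and 38.8% of the windows, against 10.4%, 3.37% and 38.2% in lost rises. Among helicase and origin genes the CHR element was in 5 of 17 windows (29.4%) and the CCAAT box in 11 of 17 (64.7%), and the CCAAT box was in 7 of 12 windows (58.3%) of the ATF4 and CHOP genes. These matches describe letters in a window and say nothing of binding.

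The replication genes had the lowest median interactions of the lists, -1.2 for helicase and origin genes and -1.15 for fork genes. Activation raised the median of 19 helicase and origin licensing genes by 1.44 in KI cells and by 0.21 in KIKO cells, and that of 37 replication fork genes by 1.09 and 0.05, where the medians over all tested loci were -0.006 and 0.004. In the first list the interaction was below 0 at 9 of 19 genes and above 0 at none, and in the second at 26 of 37 and none. The lists below share some genes and all 12 libraries, and their counts and medians describe these libraries and carry no test. Beside their counts of called interactions stand the shares of all tested loci, 8.99% above 0 and 11.6% below 0. In all, 18 of the 37 fork genes were lost, 5 blunted and 2 reversed, and 4 were preserved. Mcm5 (chromosome 8, 75836197 to 75855067, + strand, GRCm39), a subunit of the MCM helicase that unwinds DNA, was at 6.41, 6.82 and 6.45 FPKM in KI naive and 46.9, 63.01 and 89.3 in KI activated libraries. In KIKO cells it was at 4.34, 4.51 and 4.695 naive and 7.52, 8.63 and 7.12 activated. The 3 KIKO activated values lay only just above the KI naive ones and far below every KI activated library. The interaction was -2.44 ± 0.25, adjusted p = 0.0002. Mcm3, from the same helicase ring, was at 82.4, 119.8 and 174 in KI activated but 20.2, 20.3 and 18.4 in KIKO activated libraries, after naive values of 15.7–17.8 and 13.8–17.6, with an interaction of -2.49 ± 0.29, adjusted p = 0.00032. Mcm2 and Mcm4 were lost too (-1.76 and -1.49). Mcm7 went the other way in KIKO cells, from 32.6, 35.4 and 35.1 to 23.7, 21.4 and 26.4, whereas KI cells went from 31.3–33.98 to 44.6–89.8.

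Origin recognition and licensing genes were split. Orc2, Orc3 and Cdc45 were called in KI cells alone without an interaction, and Orc5 was called nowhere. Orc1, the largest subunit of the origin recognition complex, was listed at 0 in all 6 naive libraries and was at 2.28, 4.79 and 5.74 FPKM in KI and 0.556, 0.552 and 0.598 in KIKO activated libraries. For Orc6, another subunit, the KI response was 1.63 and the KIKO response -0.33. Gmnn, the inhibitor of licensing that accumulates in S phase, had a KI response of 1.68 and a KIKO response of 0.48, the latter without a call.

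At the fork, several enzymes that prime, copy and join DNA were lost, while Pcna, the sliding clamp, and Pold2 and Pole2, polymerase subunits, were blunted. Prim1, the primase, was at 7.47, 6.698 and 5.03 FPKM in KI naive, 16.2, 20.7 and 26.4 in KI activated, 7.66, 6.84 and 6.76 in KIKO naive and 6.55, 5.99 and 5.98 in KIKO activated libraries. Its KIKO activated values lay within the range of the 6 naive libraries. Rfc4, which loads the sliding clamp, had an interaction of -2.04 ± 0.29, adjusted p = 0.00092, Tipin of the fork protection complex -2.03 ± 0.30, adjusted p = 0.0012, and Lig1, which joins Okazaki fragments, -1.87 ± 0.34, adjusted p = 0.0034. The call of Rfc4 was lost with transcript starts alone (-1.46). Pold1, the catalytic subunit of polymerase delta, showed a smaller difference (-1.21), as did Pola1 (-1.42). Dnmt1, which copies DNA methylation at the fork, was reversed: 23.5–31.1 to 36.8–57.96 in KI cells and 16.9–20.4 to 11.2–14.6 in KIKO cells.

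Ung (chromosome 5, 114268447 to 114277384, + strand), the glycosylase that removes uracil from DNA, was at 1.85, 2.83 and 2.89 FPKM in KI naive and 14.8, 19.3 and 26.9 in KI activated libraries, but at 1.68, 3.29 and 1.61 in KIKO naive and 2.63, 1.49 and 2.101 in KIKO activated libraries. The KI activated libraries stood apart and the other 9 overlapped, with a KI response of 2.57, a KIKO response of -0.035 and an interaction of -2.61 ± 0.35, adjusted p = 0.00076. Dtl, a substrate receptor that marks licensing factors for degradation in S phase, was listed at 0 in KI naive cells, at 3.27, 6.35 and 8.61 after activation, and under 1 in all 6 KIKO libraries. Hells, a chromatin remodeler of proliferating lymphocytes, had a KI response of 2.47 and an uncalled KIKO response of -0.63 (-3.10 ± 0.58, adjusted p = 0.0036). Uhrf1, which brings Dnmt1 to the fork, and Cdca7, a partner of Hells, were blunted, with interactions of -2.93 and -3.31. Cdca7 climbed from 1.29–1.43 to 32.6–61.3 in KI cells and from 2.095–4.01 to 5.77–7.11 in KIKO cells.

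The supply of deoxynucleotides was split. Of 12 genes tested, 4 were lost (interaction below 0), none had an interaction above 0, 4 were preserved and 4 were called in KI cells alone without an interaction, with median responses of 1.36 and 0.39. The called share was 33.3%, against 20.6% of all loci, and it includes Tk1, which passed the filter through 1 group alone. Rrm1, the large subunit of ribonucleotide reductase, went from 3.59–4.42 to 15.5–26.6 FPKM in KI cells and from 3.37–4.17 to 4.73–5.803 in KIKO cells, an interaction of -1.62 ± 0.24, adjusted p = 0.0011. Tk1, the S phase thymidine kinase, reached 5.15, 9.504 and 7.54 in KI and 0.156, 1.28 and 0 in KIKO activated libraries, from at most 0.282 in any naive library. Dut, which clears dUTP, had an interaction of -1.57 ± 0.24, adjusted p = 0.0014.

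Of 16 G1 cyclins, kinases and E2F factors, 6 had an interaction below 0 and 1 above 0 (43.8% called, against 20.6% of all loci). Of 19 G2 and mitosis genes 4 were below 0 and none above 0. The latter share, 21.1%, lay wholly below 0, where 11.6% of all loci were called. Ccnd2, the D cyclin induced in lymphocytes, rose from 15.3, 12.9 and 14.1 to 100.2, 106 and 114 FPKM in KI cells and from 10.7, 8.48 and 11.5 to 36.5, 39.4 and 34.4 in KIKO cells. Both genotypes rose without overlap with their naive libraries, and the interaction was -1.08 ± 0.16, adjusted p = 0.0012. Cdk4, its partner kinase, and Tfdp1, the dimerization partner of E2F factors, were blunted in the same way (-1.11 and -1.56). Tfdp1 lost its call with transcript starts alone (-1.32). Cdk2 rose from 10.2–12.03 to 14.1–16.1 in KI cells and fell from 9.14–11.4 to 6.38–8.13 in KIKO cells, with an interaction of -0.97 ± 0.17, adjusted p = 0.0026. Cdc25a had a KI response of 1.26 and a KIKO response of 0.17. Ccnd3, the other D cyclin of T cells, fell in KIKO cells only, from 44.6–56.6 to 16.9–28.5 (-0.85 ± 0.22, adjusted p = 0.017). Among mitotic genes Top2a, the topoisomerase that untangles chromosomes, was lost (-2.43). Cdk1, the mitotic kinase, was under 4 FPKM in every library, and its reversal (-1.70) lost its call without KI activated 3 (-1.67).

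Growth genes were mostly blunted. Ribosome biogenesis was the most uniform list: all 51 genes tested rose in KI cells, 47 rose in KIKO cells, and 38 were blunted, 1 lost, 1 reversed and 9 preserved. The interaction was below 0 at 40 (78.4%) and above 0 at none, and the median response was 2.07 in KI and 1.05 in KIKO cells. Nop16 (chromosome 13, 54731998 to 54738232, - strand), a nucleolar protein of the large subunit pathway, was at 7.53, 6.37 and 6.67 FPKM in KI naive and 55.2, 67.1 and 67.8 in KI activated libraries. It was at 8.08, 9.501 and 7.69 in KIKO naive and 25.4, 28.4 and 18.7 in KIKO activated libraries. KIKO activated cells thus lay between the naive and the KI activated libraries, with no overlap either way, and the interaction was -1.63 ± 0.21, adjusted p = 0.0006. Bysl and Tbl3, both of the small subunit pathway, had interactions of -1.45 and -1.48. The abundant nucleolar proteins followed. Ncl, nucleolin, went from 146–179.9 to 514–726 in KI cells and from 190.4–204 to 290.2–373 in KIKO cells (-1.27 ± 0.20, adjusted p = 0.0014), and Npm1, nucleophosmin, from 422–516 to 1187–1600.0 and from 505–529.6 to 672–896 (-0.98 ± 0.20, adjusted p = 0.0053). Cytosolic ribosomal proteins did not share in it: 2 of 69 had a called interaction, Rps12 at -0.77 and Rps27 at 0.76, and the median responses of the 69 were 0.08 and 0.07. Rps27 lost its call with transcript starts alone (0.643).

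Myc, the factor that drives this growth program, was itself blunted. It was at 8.604, 8.25 and 10.3 FPKM in KI naive, 85.3, 99.05 and 118 in KI activated, 8.23, 6.37 and 7.06 in KIKO naive and 34.4, 44.2 and 27.6 in KIKO activated libraries, an interaction of -1.20 ± 0.24, adjusted p = 0.005. The KIKO activated libraries lay above all naive and below all KI activated ones. Of 10 Myc network genes tested, 6 had an interaction below 0 and 1 above 0, and their median responses were 1.07 and 0.58. The 1 above 0 was Mxi1, a repressor that competes with Myc for Max, which fell from 21.2–24.5 to 5.42–7.41 in KI cells and less, from 17.4–21.03 to 9.37–11.6, in KIKO cells (0.94 ± 0.18, adjusted p = 0.0038).

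Translation factors were blunted in part. Of 31 initiation factors, 17 had an interaction below 0 and 1 above 0, with median responses of 1.15 and 0.57. Eif5a, the factor that carries hypusine, went from 77.3–98.6 to 554–807 FPKM in KI cells and from 55.8–67.2 to 158–219 in KIKO cells (-1.37 ± 0.22, adjusted p = 0.0017). Eif3a and Eif4g1, scaffolds of initiation, had interactions of -0.77 and -0.79. The 1 above 0 was Eif4ebp1, which holds back cap-dependent translation: 4.18, 4.76 and 4.12 and 7.93, 5.86 and 7.44 in KI naive and activated cells, but 4.61, 4.78 and 6.72 and 49.4, 66.04 and 28.5 in KIKO cells (2.29 ± 0.34, adjusted p = 0.0012). Aminoacyl-tRNA synthetases, which load tRNAs, were mostly preserved (14 of 23; 6 blunted). Vars, for valine, was blunted (-1.45), whereas Aars and Nars, for alanine and asparagine, had KI responses of 2.00 and 1.65 and KIKO responses of 2.50 and 2.17, differences that did not pass the test (95% intervals of -0.056 to 1.05 and 0.09 to 0.96). Without KIKO activated 3 both were called (0.747 and 0.635). Nars was also called with quantile normalization (0.729) and without KI activated 3 (0.641).

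Purine and pyrimidine synthesis followed the growth pattern, with 11 of 16 genes below 0 and none above 0, of which 8 were blunted and 3 lost (median responses 1.57 and 0.83). Ppat, which commits phosphoribosyl pyrophosphate to purines, went from 5.402–8.66 to 22.2–30.99 FPKM in KI cells and from 5.75–7.89 to 8.601–9.998 in KIKO cells (-1.33 ± 0.24, adjusted p = 0.0029). Dhodh, the mitochondrial step of pyrimidine synthesis, rose by 1.08 in KI cells, and its KIKO activated values of 4.85, 4.75 and 4.72 were within 1 FPKM of the naive ones (-0.93 ± 0.15, adjusted p = 0.002). Ctps, which makes CTP, and Impdh2, which makes the precursor of GMP, were blunted (-1.60 and -0.99).

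The serine and folate enzymes were split. Of 13 tested, 3 had an interaction below 0, 1 above 0 (30.8% called, against 20.6% of all loci), and 7 were preserved. Shmt1 (chromosome 11, 60680422 to 60702091, - strand), the cytosolic serine hydroxymethyltransferase, had the most negative interaction of the genes described here, apart from Rpl5-ps1 and Gm9800. It was at 0.147, 1.64 and 0.458 FPKM in KI naive, 15.3, 23.04 and 26.1 in KI activated, 3.29, 3.64 and 2.85 in KIKO naive and 4.41, 4.49 and 4.83 in KIKO activated libraries (-3.35 ± 0.38, adjusted p = 0.00028). KIKO libraries, naive or activated, lay between KI naive and KI activated ones. Mthfd1, the cytosolic folate enzyme, was blunted (-1.38). The serine synthesis enzymes Phgdh, Psat1 and Psph and the mitochondrial folate enzyme Mthfd2 were placed among the preserved, but for 3 of them the interaction was called under other settings. For Psat1 it was called without both number 2 KIKO libraries (-0.908, against -0.57 with them). For Phgdh it was called with quantile normalization (1.05), without KI activated 3 (0.986) and without KIKO activated 3 (0.96), against 0.75. For Mthfd2 it was called without KIKO activated 3 (1.17) and with a replicate block within genotype (0.869). Mthfd2 rose from 2.93–4.24 to 22.4–41.6 in KI cells and from 2.23–3.76 to 31.3–69.6 in KIKO cells, an interaction of 0.87 ± 0.39, adjusted p = 0.14 with a 95% interval of 0.015 to 1.72.

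Mitochondrial, lipid and sugar genes were also blunted in part. The interaction was below 0 at 25 of 59 mitochondrial ribosomal proteins, 27 of 64 respiratory chain subunits, 13 of 24 cholesterol and fatty acid synthesis genes, 8 of 22 glycolysis genes and 6 of 16 chaperonins, and above 0 at none of these except 1 glycolysis gene. Their median KI and KIKO responses were 1 and 0.49, 0.92 and 0.43, 1.49 and 0.5, 1.15 and 0.75, and 1.53 and 1.2. Fasn, fatty acid synthase, went from 6.97–9.38 to 25.9–34.95 FPKM in KI cells and was at 8.78–9.897 in KIKO activated cells, within 3 FPKM of its naive levels (-1.64 ± 0.19, adjusted p = 0.0003). Lss and Dhcr7, late enzymes of cholesterol synthesis, were lost (-1.88 and -1.05), and Idi1 and Hmgcs1, earlier ones, were blunted (-1.65 and -1.46). With transcript starts alone the interaction of Dhcr7 was not called (-0.727). Hk2, the inducible hexokinase, was listed at 0 in all naive libraries, at 7.05, 9.75 and 11.3 in KI activated and at 2.18, 1.99 and 1.02 in KIKO activated libraries (-1.93 ± 0.31, adjusted p = 0.0018). Ldha, which makes lactate, rose from 123–129.7 to 463–612 in KI cells and from 72.2–85.01 to 111–148 in KIKO cells. The exception above 0 was Ldhb, the partner subunit, at 24.4, 23.4 and 26.1 in KI activated and 85.6, 79.5 and 63.3 in KIKO activated libraries (1.25 ± 0.20, adjusted p = 0.0017). Acot7, an acyl-CoA thioesterase, was blunted by -2.31 while also higher in KIKO naive (8.403–15.9) than in KI naive cells (1.91–2.48).

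**Figure D3:**
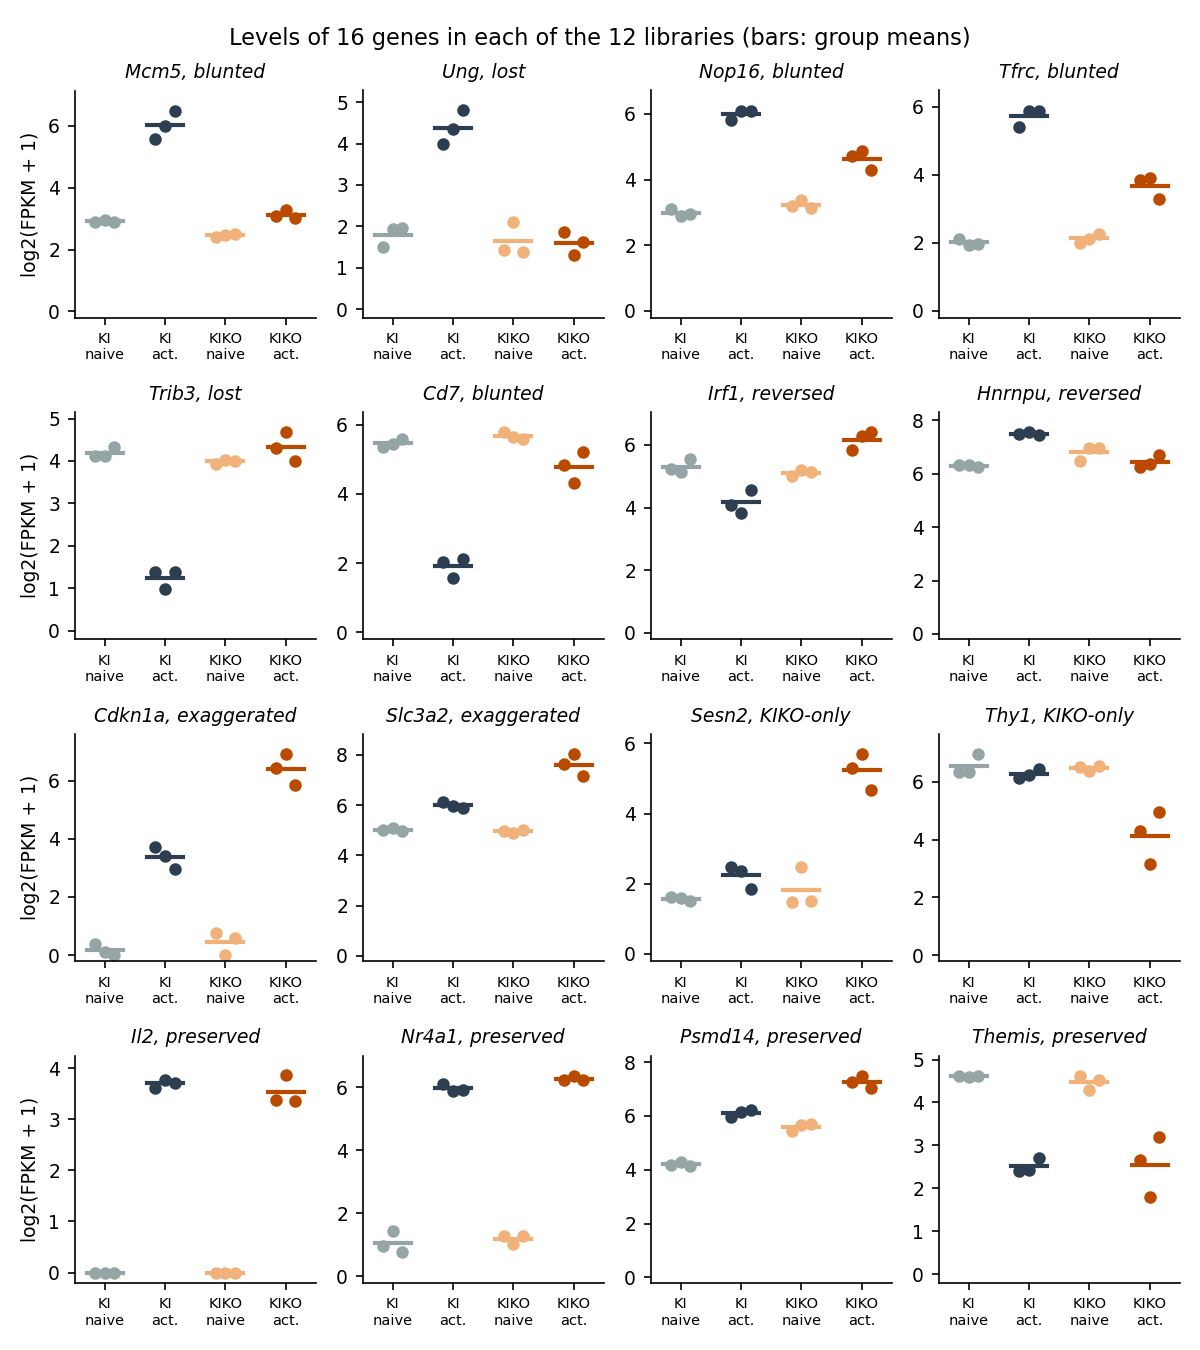
Levels of 16 genes in log2(FPKM + 1) on the y axis, each panel with its own scale, in the 4 groups on the x axis; points are the 3 libraries of a group, bars the group means, and titles give the response class. Mcm5 and Ung stay near naive levels in KIKO activated cells, and Nop16 and Tfrc rise partway. Trib3 stays near its naive level in KIKO cells, and Cd7 falls less there than in KI cells. Cdkn1a and Sesn2 rise more in KIKO cells, and Il2 and Nr4a1 rise in both genotypes.

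Of 17 early transcription factors of the receptor response 16 rose in KI cells and 16 in KIKO cells, and 11 were preserved. The interaction was above 0 at 2 and below 0 at 4 (35.3%, against 20.6% of all loci), and median responses were 1.81 and 1.77. Nr4a1, an orphan receptor that reports receptor signal strength, was at 0.972, 1.69 and 0.717 FPKM in KI naive, 67.99, 57.99 and 59.2 in KI activated, 1.44, 1.05 and 1.42 in KIKO naive and 74.5, 81.7 and 74.4 in KIKO activated libraries. The interaction was 0.18 ± 0.21, adjusted p = 0.61 with a 95% interval of -0.29 to 0.64, so a difference of 1 in either direction lies outside it. Irf4, a factor of activated lymphocytes, had responses of 7.50 in KI and 6.98 in KIKO cells, and an interaction of -0.52 ± 0.28, adjusted p = 0.22. Nfkb1 differed by 0.019 ± 0.19, adjusted p = 0.96. Exceptions ran both ways. Batf, an AP-1 factor of effector T cells, went from 9.61–11.3 to 28.7–29.3 in KI cells and from 14.1–17.1 to 16.7–19.8 in KIKO cells (-1.22 ± 0.14, adjusted p = 0.00033), and Egr3, a factor downstream of NFAT, was blunted (-1.43 ± 0.21, adjusted p = 0.0012). Fosl1, another AP-1 partner, was listed at 0 in KI naive cells and was at 0.867, 1.41 and 1.15 in KI activated and 34.1, 34.6 and 8.104 in KIKO activated cells, and its relative Fosl2 was called in KIKO cells only (1.08). With quantile normalization the interaction of Fosl2 was not called (0.82).

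Cytokines and surface receptors were mixed. Il2, the main growth factor of activated T cells, was listed at 0 in all 6 naive libraries and reached 11.3, 12.6 and 12.2 FPKM in KI and 9.39, 13.5 and 9.22 in KIKO activated cells. The activated groups overlapped, and the interaction was -0.17 ± 0.22, adjusted p = 0.63 with a 95% interval of -0.65 to 0.31. Lif, a cytokine of the IL-6 family, was likewise preserved (0.16 ± 0.36, adjusted p = 0.79). Of 12 cytokines and ligands tested, 5 had an interaction below 0 and none above 0, and median responses were 2.32 and 1.2. Lta, lymphotoxin alpha, was the largest: 1.89–4.22 to 18.8–24.5 in KI cells and 5.03–6.398 to 4.06–4.47 in KIKO cells (-2.84 ± 0.27, adjusted p = 0.00016). Tnfsf11, which encodes RANK ligand, was blunted (-1.52 ± 0.32, adjusted p = 0.0066), with a call lost at a pseudocount of 0.1. Tgfb1, an inhibitory cytokine, had a KI response of 0.59 and an uncalled KIKO response of -0.057 (-0.65), with a call lost under quantile normalization (-0.434).

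Among 19 surface markers and receptors 7 had an interaction below 0, 2 above 0, and 10 were preserved, with median responses of 2.11 and 2.9. The medians of the responses and of the interaction (-0.46) thus differ in sign here. Il2ra, the alpha chain of the IL-2 receptor, rose to 107, 108 and 104 FPKM in KI and 52.6, 65.8 and 40.7 in KIKO activated cells. These groups did not overlap, yet on the log scale the responses were 5.89 and 5.37 and the interaction -0.52 ± 0.39, adjusted p = 0.37 had a 95% interval of -1.36 to 0.32. With a pseudocount of 5 the interaction of Il2ra was called (-0.837). Tfrc (chromosome 16, 32427738 to 32451612, + strand), the transferrin receptor that brings iron into dividing cells, was blunted far more: 3.35, 2.84 and 2.897 in KI naive, 41.5, 58.02 and 57.3 in KI activated, 3.005, 3.33 and 3.799 in KIKO naive and 13.2, 14.00 and 8.67 in KIKO activated libraries, an interaction of -2.17 ± 0.25, adjusted p = 0.0003. Cd5 and Cd6, receptors that dampen T cell receptor signals, were blunted (-0.93 and -1.23). Cd69, an early activation marker, was at 154–199 in KI and 112–197 in KIKO activated cells, groups that overlapped. Naive values were higher in KIKO (9.31–11.2) than in KI cells (4.97–6.36). Its interaction was -0.92 ± 0.25, adjusted p = 0.022, and the call was lost without KI activated 2 (-0.82) or KI naive 2 (-0.843), with a replicate block within genotype (-0.923), with quantile normalization (-0.682) and with a pseudocount of 5 (-0.679). Tnfrsf9 (4-1BB), a co-stimulatory receptor, was blunted at -1.03, but it was listed at 0 in KIKO naive cells and the sign depended on the pseudocount: with 0.1 in place of 1 the interaction was 0.296.

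The receptor's own signalling genes were mixed. Of 18 tested, 3 had an interaction below 0 and 1 above 0, a share of 22.2% that is close to the background. Vav1, an exchange factor, was at 65.5–68.3 FPKM in KI activated and 40.4–47.3 in KIKO activated libraries, from 65.03–70.2 and 68.2–69.3 in naive cells (-0.64 ± 0.11, adjusted p = 0.0026). Lck, the kinase that starts receptor signalling, was at 78.8, 68.4 and 99.9 in KIKO activated libraries against 169.6–179 in KI activated ones (-0.71 ± 0.17, adjusted p = 0.014), and Cd4 at 96.2, 86.4 and 138 against 171–182, without a called interaction (-0.36 ± 0.21, adjusted p = 0.26). That of Cd4 was called without KIKO activated 3 (-0.56) and with transcript starts alone (-0.678). Zap70, which Lck activates, was preserved, with responses of 1.38 and 1.57. The gene above 0 was Ptpn22, a phosphatase that restrains the receptor, which was called in KIKO cells only: 32.6–50.4 in KI activated and 76.01, 95.8 and 69.7 in KIKO activated libraries (1.64 ± 0.21, adjusted p = 0.00063). Cd8b1, a CD8 chain that a pure CD4 population should lack, was low in all libraries, from 6.51–8.12 to 10.9–12.8 in KI and from 12.5–16.1 to 8.39–10.04 in KIKO cells. The summed T cell markers were also lowest in KIKO activated libraries, as given above, and their part in these values was not tested.

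KIKO-only falls included Thy1. Thy1 (chromosome 9, 43954681 to 43958225, + strand), a surface glycoprotein of all T cells, was at 79.96, 79.7 and 124 FPKM in KI naive, 69.4, 75.2 and 86.7 in KI activated, 89.7, 81.4 and 93.5 in KIKO naive and 18.9, 7.902 and 29.9 in KIKO activated libraries. The KIKO activated libraries lay below the other 9, with 7.9 in KIKO activated 2, and the interaction was -2.07 ± 0.48, adjusted p = 0.011. Timeless, a fork protection protein, went from 11.8–14.7 to 2.17–6.18 in KIKO cells and from 14.9–16.6 to 14.8–25.3 in KI cells (-1.73 ± 0.36, adjusted p = 0.0066). Stx1a, a membrane fusion protein, fell from 15.7–18.8 to 4.38–8.47 in KIKO cells, which brought it near the KI levels of 3.42–4.44, so the difference here lay in naive cells (-1.23 ± 0.27, adjusted p = 0.0078). Samd1, a chromatin protein that binds unmethylated CpG islands, and Selenoh, a selenoprotein of the nucleolus, had interactions of -1.20 and -1.55. The call of Selenoh was lost without KI activated 3 (-1.32) and without both number 2 KIKO libraries (-1.09). The 6 exaggerated falls were small, between -0.48 (Mcmbp) and -0.64 (Ccdc22 and Dcaf17), and each of the 6 lost its call when at least 1 library was left out. For Phf7, the least affected of them, those libraries were KI activated 2 (-0.609), KI naive 2 (-0.511) and KIKO activated 1 (-0.551).

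Of the 2878 falls called in KI cells 339 were lost, 238 blunted, 71 reversed and 1454 preserved. Of 28 genes of the naive and quiescence program 23 fell in KI and 21 in KIKO cells, 17 were preserved and 6 blunted, and the interaction was above 0 at 6 and below 0 at 2 (median responses -1.43 and -1). Tob1, an antiproliferative protein of quiescent T cells, went from 55.4, 51.9 and 55.9 to 11.5, 9.29 and 8.51 FPKM in KI cells and from 55.1, 59.2 and 56.5 to 28.4, 25.9 and 31.6 in KIKO cells. The KIKO activated values sat between the naive and the KI activated ones (1.40 ± 0.15, adjusted p = 0.00028). Tsc22d3, the glucocorticoid-induced leucine zipper, was blunted too (1.66 ± 0.34, adjusted p = 0.0063). Il7r, the receptor for the survival cytokine IL-7, fell from 238–284 to 4.59–17.2 in KI cells and from 222–234 to 11.3–63.5 in KIKO cells, but KIKO activated 2 lay among the KI values and the interaction did not pass (1.96 ± 0.73, adjusted p = 0.076). It was called without both number 2 KIKO libraries (2.67), without KIKO activated 2 alone (2.67), without KI activated 3 (2.43) and with the replicate block (1.96).

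The blunted falls with the largest interactions were those of Cd7 and Ly6c1. Cd7 (chromosome 11, 120927573 to 120930244, - strand), an immunoglobulin superfamily receptor of T cells, was at 39.9, 42.7 and 47.4 FPKM in KI naive, 3.12, 1.96 and 3.36 in KI activated, 54.1, 49.3 and 47.2 in KIKO naive and 27.8, 18.9 and 35.96 in KIKO activated libraries (2.67 ± 0.28, adjusted p = 0.00025). The lowest KIKO activated library was still well above the highest KI activated one. Ly6c1, a GPI-anchored antigen, was at 2.24, 1.62 and 4.44 in KI and 8.94, 10.8 and 18.6 in KIKO activated cells (2.19), and Tnfrsf26, of the TNF receptor family, at 4.54–8.52 and 19.1–22.3 (1.86). Smpdl3a, a phosphodiesterase, and Phf1, a partner of the Polycomb complex, had interactions of 1.85 and 1.85. Some falls were lost altogether. Tubb2a, a beta tubulin, was at 10.8–14.00 in KI activated and 60.9, 69.3 and 69.5 in KIKO activated cells, the latter like its KIKO naive levels of 56.9–68.7 (2.11 ± 0.16, adjusted p = 3e-05), and Vat1, a vesicle membrane protein, at 4.297–6.23 and 38.03, 36.1 and 37.9 (1.89 ± 0.19, adjusted p = 0.00019).

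Lysosome and autophagy genes held many lost falls. Of 27 tested, 14 fell in KI cells and 4 in KIKO cells, 7 were lost and 3 reversed, and the interaction was above 0 at 12 (44.4%) and below 0 at none (median responses -0.3 and 0.27). Ctsd, the lysosomal protease cathepsin D, was at 119, 120.2 and 148 FPKM in KI naive, 35.9, 32.1 and 39.5 in KI activated, 130.4, 175 and 140.2 in KIKO naive and 121, 125 and 116 in KIKO activated libraries (1.53 ± 0.18, adjusted p = 0.00032). Only the KI activated group stood apart. Ulk1, the kinase that starts autophagy, had a KI response of -0.85 and a KIKO response of 0.27 (1.12 ± 0.15, adjusted p = 0.00075). The receptors that bind ubiquitin and feed cargo to autophagosomes were reversed: Sqstm1 (p62) went from 130.2–150.2 to 80.04–100.4 in KI cells and from 235–285 to 400.0–523 in KIKO cells (1.50 ± 0.18, adjusted p = 0.00039), and Tax1bp1 from 118–127 to 55.1–66.05 and from 126–138 to 156–174 (1.32 ± 0.12, adjusted p = 0.00014). Nbr1, the third such receptor here, was a lost fall (0.92).

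Stress genes of the ATF4 and CHOP pathway showed the strongest shift of any list. Of 12 tested, 11 (91.7%) had an interaction above 0 and none below 0, and the median response was 0.01 in KI and 1.66 in KIKO cells. They split by kind: 5 were KIKO-only, 3 exaggerated, 2 lost falls and 1 a blunted fall. The KIKO-only genes include Slc7a11, which passed the filter through KIKO activated cells alone and so had to differ. Gpt2, likewise KIKO-only, also passed the filter through 1 group alone. Calls of this kind support nothing in the counts of the list. Trib3 (chromosome 2, 152179342 to 152186496, - strand), a pseudokinase induced by ATF4 and CHOP, was at 16.3, 16.3 and 18.9 FPKM in KI naive and 1.61, 0.966 and 1.62 in KI activated libraries, and at 14.3, 15.4 and 15.02 in KIKO naive and 18.7, 24.6 and 14.9 in KIKO activated libraries. It fell by 2.93 on the log2 scale in KI cells and had an uncalled response of 0.33 in KIKO cells (3.27 ± 0.23, adjusted p = 2.8e-05). Ddit3, which encodes CHOP, was at 10.96–13.2 in KI activated and 36.8, 26.3 and 38.9 in KIKO activated cells (1.04 ± 0.22, adjusted p = 0.0073). Asns, asparagine synthetase, was listed at 0 in all 6 naive libraries and reached 1.68, 1.13 and 1.76 in KI and 7.85, 17.7 and 5.66 in KIKO activated libraries (2.04 ± 0.44, adjusted p = 0.0072). Slc7a11, the cystine transporter, was listed in KIKO activated libraries alone, at 2.44, 6.92 and 1.25, with KIKO activated 2 the highest. Atf3, itself a stress-induced factor, rose from 0 to 4.35, 4.33 and 4.01 in KI and 14.7, 27.1 and 8.16 in KIKO cells (1.61 ± 0.42, adjusted p = 0.02), with a call lost at a pseudocount of 0.1.

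Sesn2 (chromosome 4, 132219253 to 132237812, - strand), a sensor that restrains mTORC1 and a target of both ATF4 and p53, was at 2.06, 1.996 and 1.84 FPKM in KI naive, 4.61, 4.11 and 2.64 in KI activated, 1.78, 4.53 and 1.87 in KIKO naive and 38.6, 50.8 and 24.6 in KIKO activated libraries. All 3 KIKO activated values were above the other 9 (2.74 ± 0.41, adjusted p = 0.0012). Ppp1r15a (GADD34), which restores translation after stress, was KIKO-only (1.50 ± 0.26, adjusted p = 0.0024). Ddit4, another brake on mTORC1, was exaggerated (1.08 ± 0.27, adjusted p = 0.016), but without both number 2 KIKO libraries its call was lost (0.924). Slc3a2 (chromosome 19, 8684246 to 8700733, - strand), the heavy chain shared by several amino acid transporters, rose from 31.01, 32.8 and 30.6 to 69.4, 61.8 and 58.7 in KI cells and from 30.5, 28.8 and 31.2 to 196, 259.9 and 141 in KIKO cells (1.66 ± 0.24, adjusted p = 0.00097). Of 12 amino acid transporters 3 had an interaction above 0, none below 0, and 6 were preserved. The called share, 25%, lay wholly above 0, where 8.99% of all loci were called.

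Targets of p53 were often higher after activation in KIKO cells. Of 30 tested, 17 (56.7%) had an interaction above 0 and none below 0. The list held 8 KIKO-only and 6 exaggerated genes, 13 were preserved, and median responses were 0.58 and 1.85. Perp, a KIKO-only gene, passed the filter through 1 group alone, and a call of this kind supports nothing in these counts. Cdkn1a (chromosome 17, 29309950 to 29317811, + strand), the cyclin-dependent kinase inhibitor p21, was at 0.315, 0.0819 and 0 FPKM in KI naive, 12.1, 9.69 and 6.73 in KI activated, 0.708, 0 and 0.501 in KIKO naive and 85.2, 119 and 55.99 in KIKO activated libraries. It rose in both genotypes, and its lowest KIKO activated library was above the highest KI activated one (2.75 ± 0.40, adjusted p = 0.001); with a pseudocount of 0.1 the call was lost. Plk2, a polo-like kinase, had the largest interaction above 0 among exaggerated genes: 1.95, 1.77 and 1.44 in KI and 26.3, 34.2 and 15.5 in KIKO activated cells, from under 1 in every naive library (3.52 ± 0.38, adjusted p = 0.00025). Gtse1, which acts on p53 and the spindle, went to 4.597, 3.99 and 4.41 in KI and 59.98, 71.5 and 34.7 in KIKO cells (2.97 ± 0.43, adjusted p = 0.001). Mdm2, the ligase that degrades p53, was at 19.98–27.3 and 87.02, 99.6 and 59.95 (1.49 ± 0.24, adjusted p = 0.002), and Ccng1, cyclin G1, at 49.1–61.4 and 132, 158 and 97.8 (1.23 ± 0.21, adjusted p = 0.0022). Trp53, the gene for p53 itself, was preserved, with responses of 1.05 and 0.93 and an interaction of -0.12 ± 0.17, adjusted p = 0.67 (95% interval -0.48 to 0.25).

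Cell death genes were called in smaller numbers. Of 10 BCL2 family members tested, 3 had an interaction above 0 and 1 below 0 (40% called, against 20.6% of all loci). Of 20 death receptor, caspase and necroptosis genes 3 were above 0 and 1 below 0, a share (20%) at the background. Fas, the death receptor, was at 11.1, 14.98 and 14.4 FPKM in KI naive, 14.2, 12.7 and 9.49 in KI activated, 15.7, 13.01 and 12.04 in KIKO naive and 53.2, 65.01 and 45.4 in KIKO activated libraries. The 9 other libraries overlapped below 16, and the interaction was 2.08 ± 0.24, adjusted p = 0.00033. Apaf1, which assembles the apoptosome, was KIKO-only (1.95 ± 0.23, adjusted p = 0.00039). The BH3-only genes Bcl2l11 (BIM) and Pmaip1 (NOXA) were KIKO-only as well: BIM was at 11.1–15.3 in KI and 29.01, 32.9 and 28.7 in KIKO activated cells (1.43 ± 0.16, adjusted p = 0.00028), NOXA at 1.098–1.72 and 17.6, 20.7 and 14.99 (2.03 ± 0.42, adjusted p = 0.0061). Bbc3 (PUMA), the third of this kind, was a lost fall, with KIKO levels of 35.8–39.1 naive and 38.8–42.5 activated (0.88 ± 0.17, adjusted p = 0.0045). The BCL2 family member below 0 was Bcl2l1, which encodes the survival protein BCL-xL and rose from 2.21–3.14 to 52.4–66.4 in KI and from 2.72–3.81 to 18.2–30.04 in KIKO cells (-1.46 ± 0.26, adjusted p = 0.0027). Mcl1, which encodes another survival protein, did not pass (0.27 ± 0.14, adjusted p = 0.2). Mlkl, the effector of necroptosis, was listed at 0 in 5 of 6 KI libraries, at 2.52, 4.699 and 3.19 in KIKO naive and at 20.1, 26.6 and 18.1 in KIKO activated cells (2.24 ± 0.29, adjusted p = 0.00063), with a call lost at a pseudocount of 0.1.

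Chaperones of the heat shock response were divided between preserved responses and interactions above 0. Of 16 heat shock chaperones, 6 (37.5%) had an interaction above 0, against 8.99% of all loci, and none was below 0. There were 9 preserved genes, and median responses were 1.42 and 1.81. Hspb1, a KIKO-only gene, passed the filter through 1 group alone, and a call of this kind supports nothing in these counts. Bag3, the co-chaperone that sends damaged proteins to autophagy, was at 6.21, 5.82 and 7.46 FPKM in KI naive, 3.81, 3.696 and 4.602 in KI activated, 3.27, 7.32 and 3.51 in KIKO naive and 16.7, 24.4 and 15.5 in KIKO activated libraries (2.42 ± 0.34, adjusted p = 0.00086). Dnajb1, a partner of HSP70, was KIKO-only (1.50 ± 0.16, adjusted p = 0.00021), and Hspa4l and Dnaja1 were exaggerated (1.24 and 0.78). Hspa8, the constitutive HSP70, rose to 1711, 2037 and 2450.0 in KI and 4200.0, 4954 and 3591 in KIKO cells without a called interaction (0.50 ± 0.23, adjusted p = 0.15).

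NRF2, the antioxidant factor encoded by Nfe2l2, had 10 of 22 targets above 0 and 2 below 0 (median responses 0.11 and 0.86). Nfe2l2 itself fell in KI cells from 32.3–35.3 to 10.6–14.9 FPKM and was at 24.4–27.8 in KIKO activated cells (1.20 ± 0.16, adjusted p = 0.00075). Srxn1, sulfiredoxin, was listed at 0 in all naive libraries and was at 8.41, 19.6 and 6.05 in KIKO activated and at most 1.1 in KI activated libraries. Nqo1, a quinone reductase, was reversed: 2.55, 2.87 and 2.67 to 1.62, 1.27 and 0.834 in KI cells and 2.61, 3.04 and 2.79 to 6.88, 8.59 and 6.47 in KIKO cells (1.85 ± 0.22, adjusted p = 0.00039). Gclm and Gclc, the subunits of the enzyme that makes the glutathione precursor, were KIKO-only and a lost fall (1.16 and 1.02), and Fth1, ferritin heavy chain, was reversed (1.24).

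Interferon-induced genes mostly fell on activation in KI cells, while about as many rose in KIKO cells. Of 21 tested, 13 fell in KI and 3 in KIKO cells while 10 rose in KIKO cells. The interaction was above 0 at 14 (66.7%) and below 0 at none, with median responses of -0.82 and 0.46. Irf1 (chromosome 11, 53660841 to 53665929, + strand), a factor induced by interferon gamma, was at 36.3, 33.97 and 45.8 FPKM in KI naive, 15.9, 13.3 and 22.8 in KI activated, 30.98, 36.00 and 33.9 in KIKO naive and 55.7, 76.4 and 83.5 in KIKO activated libraries. The naive groups overlapped, the KI activated libraries lay below them and the KIKO activated libraries above (2.19 ± 0.27, adjusted p = 0.00048). Irgm1, an immunity-related GTPase, was reversed with the largest size of that class (7.896–11.03 to 3.28–6.62 in KI, 6.41–7.19 to 29.9–34.4 in KIKO cells; 3.00 ± 0.27, adjusted p = 0.00012). Its relatives Irgm2 and Iigp1 were KIKO-only (2.35 and 3.30). The guanylate-binding proteins took 3 routes: Gbp2 was exaggerated (112, 153 and 132 in KIKO against 14.2–28.3 in KI activated cells, 2.71 ± 0.31, adjusted p = 0.00032), Gbp3 was KIKO-only (1.81), and Gbp7 was a lost fall (7.73–13.04 to 0.383–0.891 in KI, 4.71–11.4 to 11.3–14.3 in KIKO cells, 3.36 ± 0.38, adjusted p = 0.00028). Gbp3 lost its call with transcript starts alone (1.01). Tap1, the antigen peptide transporter, was reversed (1.23), and Stat2, a signal transducer of type I interferon, was a lost fall (0.81).

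Reversed responses also occurred outside these lists. Hnrnpu (chromosome 1, 178140893 to 178165362, - strand), a nuclear RNA-binding protein, was at 79.9, 78.95 and 75.7 FPKM in KI naive, 178, 186 and 173 in KI activated, 87.5, 124 and 125 in KIKO naive and 74.5, 81.4 and 102 in KIKO activated libraries. The KI activated libraries lay above the other 9 (-1.55 ± 0.20, adjusted p = 0.00063). Cd226, a co-stimulatory receptor, rose from 4.43–6.27 to 8.58–18.7 in KI and fell from 4.64–6.06 to 1.47–2.45 in KIKO cells (-2.15 ± 0.34, adjusted p = 0.0015), and Sting1, the adaptor of cytosolic DNA sensing, from 25.3–29.97 to 38.4–39.4 and from 25.9–33.99 to 10.96–16.9 (-1.48 ± 0.20, adjusted p = 0.00084). Ly6a (Sca-1), Pck2, the mitochondrial PEPCK, and Sytl1, a Rab27 effector, fell in KI and rose in KIKO cells (2.81, 2.57 and 2.26). Glipr1 and Crip2 were among the largest KIKO-only rises (2.66 and 3.11), and Zfp385a, a p53 partner, was at 12.4, 14.9 and 6.08 FPKM in KIKO activated libraries and under 1 in the other 9. Glipr1 was at 15.98–20.5 in KI and 118, 143 and 88.4 in KIKO activated cells.

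The proteasome's own genes rose in both genotypes. Of 16 core (20S) genes tested, 13 rose in both and were preserved, and 1 had an interaction above 0 and none below 0. Of 17 cap (19S) genes all 17 rose in both, 15 were preserved and 2 were below 0. Median responses were 1.34 and 1.19 for the core and 1.21 and 1.08 for the cap. Psmd14, the cap's deubiquitinase, was at 17.1, 18.5 and 16.7 FPKM in KI naive, 61.9, 69.2 and 73.5 in KI activated, 42.5, 49.6 and 50.2 in KIKO naive and 151, 178 and 129 in KIKO activated libraries. KIKO cells were higher both before and after activation, and the interaction was -0.25 ± 0.17, adjusted p = 0.33 with a 95% interval of -0.62 to 0.12. Psma1, a core alpha subunit, differed by -0.093 ± 0.17, adjusted p = 0.74. The core gene above 0 was Psmb9, the inducible subunit of the immunoproteasome, which fell in KI cells alone (19.5–26.9 to 8.502–14.00, against 12.97–20.9 to 15.3–21.2 in KIKO cells, 1.10 ± 0.30, adjusted p = 0.022), and whose call was lost without KI activated 2 (1.02) or KI naive 3 (0.982). Of 10 activators and assembly factors 2 were below 0 and 1 above 0 (30% called, against 20.6% of all loci). Those below 0 were Psmg2 and Psmg3, whose calls were lost without both number 2 KIKO libraries, at -0.791 and -0.784. The gene above 0 was Psmd5, a cap assembly chaperone (0.61 ± 0.14, adjusted p = 0.0095). In the ubiquitin system, Usp5, which recycles free ubiquitin chains, was blunted (141–213 in KI against 49.3–72.6 in KIKO activated cells, -1.97 ± 0.23, adjusted p = 0.00032), and Zfand2a, a stress-induced partner of the 19S cap, was reversed (1.45).

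Preserved responses showed what KIKO cells kept. Among rises with an interval of the interaction within -1 to 1, Il2rb, the beta chain of the IL-2 receptor, had responses of 3.40 and 2.94 (-0.46 ± 0.24, adjusted p = 0.2), and Hspd1, the mitochondrial chaperonin, of 3.21 and 3.03 (-0.17 ± 0.30, adjusted p = 0.72). A pseudocount of 5 made the interaction of Il2rb a called one (-0.509). Among falls, Themis, a regulator of receptor signals in T cells, was at 23.4, 23.3 and 23.7 FPKM in KI naive, 4.26, 4.397 and 5.49 in KI activated, 23.5, 18.5 and 21.9 in KIKO naive and 5.32, 2.47 and 8.15 in KIKO activated libraries. The activated groups overlapped (0.18 ± 0.37, adjusted p = 0.77). Klhl6, a lymphocyte ubiquitin ligase adaptor, Stk38, a kinase of the NDR family, and Tpcn1, an endolysosomal channel, fell in both genotypes (-0.033, 0.22 and 0.009). In all of these falls KIKO activated 2 had the lowest and KIKO activated 3 the highest value, the order seen in the median shares.

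**Figure D4:**
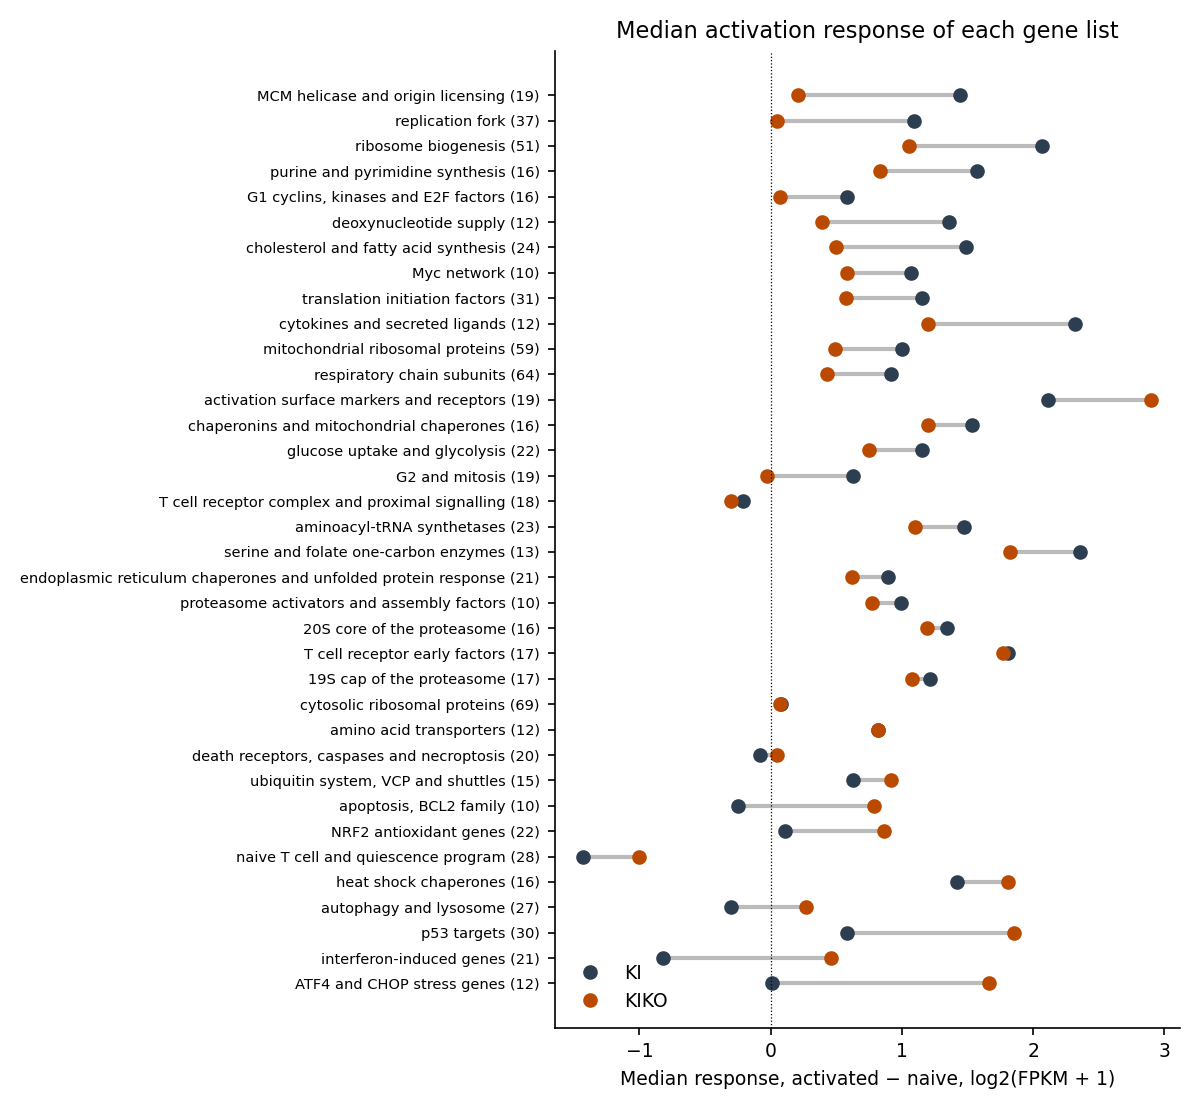
The x axis is the median activation response, in log2(FPKM + 1), of the tested members of each gene list (number in brackets) in KI (dark) and KIKO cells (orange), ordered by the median interaction. Replication, ribosome biogenesis and lipid lists have KIKO points to the left of KI points, while p53, interferon and ATF4 lists have them to the right.

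**Figure D5:**
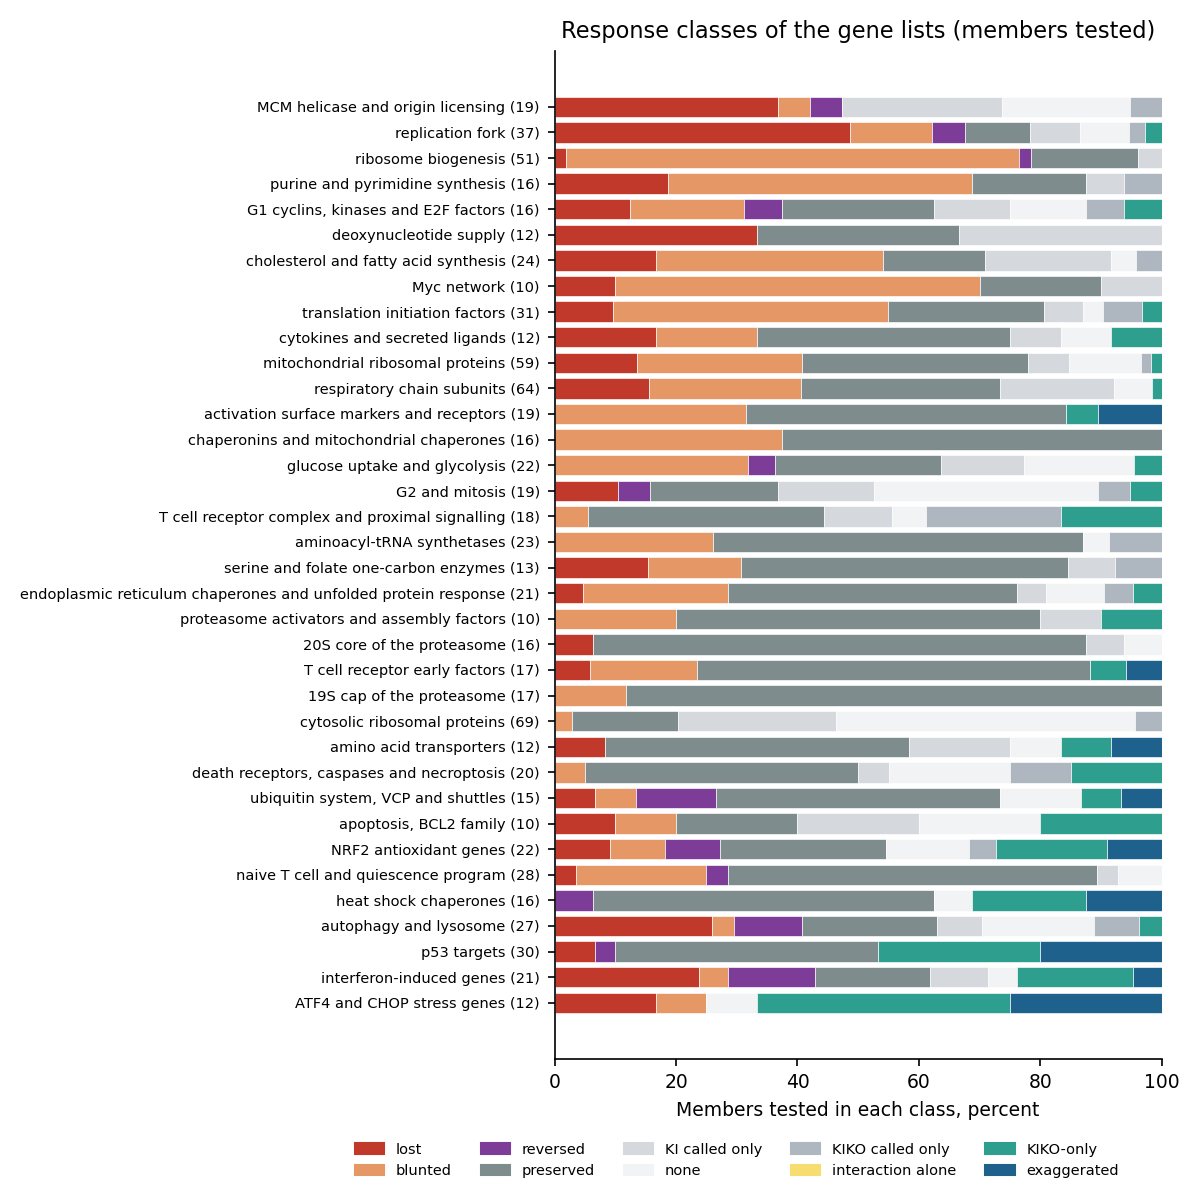
Bars give, for the same lists in the same order, the percent of tested members in each response class, as defined in the text. Replication lists are led by lost responses, ribosome biogenesis by blunted ones (38 of 51), both proteasome lists by preserved ones (13 of 16 and 15 of 17), and the ATF4 list by KIKO-only ones (5 of 12).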

How the data were processed

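The 12 libraries hold RNA from CD4 T cells of mouse spleen. The authors deposited FPKM values per transcript event (transcript starts, ends and exons), in which events at 0 are not listed. The submitters' processing notes name FastQC 0.11.9, cutadapt 2.9 and HISAT2 2.2.0, but for the FPKM program they name none, and it is not given here. The coordinates in the files fit GRCm39. The level of a locus was taken as the largest of its summed start FPKM, its summed end FPKM and its largest event. Symbols were checked by exon and intron lengths against GENCODE M21 and dropped where they belonged to a neighbour. Loci with a level of 1 FPKM or more in at least 3 of the 12 libraries were tested on log2(FPKM + 1) with limma 3.58.1 (R 4.3.3, trend over intensity, 8 residual and 4 prior degrees of freedom) in 1 model of the 4 groups, with p-values adjusted by Benjamini-Hochberg across these loci and a threshold of 0.05. The fit was tested on simulated data. Whether counting used strand is not stated, so overlapping genes may share reads. KI and KIKO responses share no libraries, but each interaction uses all 4 groups.

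Members and gene lists were chosen with earlier results of these data known. Genes were named by a rule: the 6 loci of each class and direction with the largest interaction among those with a mean level of 5 or more in a group and a checked symbol, 6 preserved loci each way, and list members. Pex2, Zfp418, Mylip, Ubr7, Rpl5-ps1 and Gm9800 were named after their values were seen. Promoter sequences came from RefSeq by symbol, and 6997 tested loci had one. Alternatives were other scalings, pseudocounts, filters, variance models, thresholds, a replicate block, transcript starts alone, another boundary between lost and blunted, and leaving out each library; leaving out both number 2 KIKO libraries was chosen after seeing the data. Marker lists for B cells, NK cells, erythroid cells and platelets summed to at most 2.78, 10.6 and 2.35 FPKM in any library.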

Additional observations from a re-analysis of the deposited data

Results flagged for a closer look

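The interaction itself was called at 2010 loci by limma, a direct test of whether the effect of activation differs between the genotypes. Of these calls, 67 were at loci that passed the filter through 1 group alone and support nothing. The other 1943 were called at an adjusted p under 0.05, a threshold that still admits some false calls. The 12 reversed genes with the largest interactions, 6 each way, were noted because all 3 KI libraries moved one way and all 3 KIKO libraries the opposite way. Their class already requires called responses of opposite sign, so this agreement adds no support. Library responses of the genotypes lay apart without overlap at each of the 2010 called loci, and at 54.3% of all loci tested. Other reversed genes named in the text, such as Nqo1, Sqstm1 and Cdk2, also moved one way in all 3 KI and the other way in all 3 KIKO libraries. Those that rose in KI and fell in KIKO cells were Cd226 (-2.15), Nrros, which regulates TGF-beta activation (-1.77), Ubxn11, a UBX domain protein (-1.59), Hnrnpu (-1.55), Eno3, the muscle enolase (-1.52), and Sting1 (-1.48). Those that fell in KI and rose in KIKO cells were Irgm1 (3.00), Ly6a (2.81), Pck2 (2.57), Sytl1 (2.26), Irf1 (2.19) and Snrpd3, a core protein of the spliceosome (1.97). The numbers are interactions on the log2(FPKM + 1) scale.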

How the results depend on the processing

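Of 220 named genes with a called interaction, 157 kept their direction and call under all 25 settings, 13 under every setting that gave a value, 49 lost the call under at least 1, and 1 (Tnfrsf9) reversed, to 0.296 with a pseudocount of 0.1. Of 37 uncalled ones, 15 passed under at least 1. The replicate block gave 1849 called interactions, and the block within genotype 1836, against 2010, both within 1.5 times of 2010. Deviations from the group means were weakly correlated between naive and activated libraries of the same genotype. The correlations ran from -0.004 to 0.102 for libraries of the same number and from -0.073 to 0.066 for different numbers. KIKO naive 2 and KIKO activated 2 also shared high levels of Lyz2, S100a8 and S100a9. Some pairing by number is thus possible, and the main fit did not use it. With a minimum size of 1 the interaction was counted at 722 loci (324 above and 398 below 0), of which 261 were lost, 256 blunted, 64 reversed, 29 exaggerated and 107 KIKO-only. At an adjusted p under 0.01 there were 876 (370 and 506), with 411 lost, 283 blunted, 45 reversed, 16 exaggerated and 116 KIKO-only, and under 0.1 there were 197 reversed and 107 exaggerated. Fewer loci pass a stricter threshold by construction. Without both number 2 KIKO libraries 165 were KIKO-only, and the cause was not tested. Leaving out 1 library gave 1361 to 2103 interactions, 611 to 966 above and 747 to 1164 below 0, 501 to 930 lost, 497 to 857 blunted, 83 to 125 reversed, 39 to 142 exaggerated, 186 to 256 KIKO-only and 2091 to 2969 preserved responses, and a median share of 0.504 to 0.635. Scaling to equal sums moved the median KI response from -0.006 to -0.127, and that of the interaction to 0.02. FPKM without counts limits what can be said of genes near 0.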
